A study of Mus musculus with 10 samples.

Results

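The DNA replication machinery was followed in the right atrium of adult mice through 47 genes, out of 23337 genes in the table. The 47 genes encode the proteins that license origins, unwind the helix, copy both strands, load the sliding clamp, join Okazaki fragments, supply deoxynucleotides and put histones back behind the fork. They were chosen by function, and the group was picked because cell cycle genes were higher in mice labelled Tbx5 mutant than in mice labelled control, so the choice rests on read counts of the same 10 libraries. Values of the mutant and control comparison are therefore a description of these genes and support nothing by themselves.

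RNA was sequenced from the right atria of 10 mice of mixed strain, 4 labelled Control and 6 labelled R26Cre driven TBX5 removal. TBX5 is a T-box transcription factor of the atrium and the conduction system. Exon 3 of Tbx5 was removed in the mutant mice by a tamoxifen inducible Cre under the R26 promoter, which is active in all cell types, so that removal was not restricted to cardiomyocytes. The treatment text given with every sample, controls included, states 3 days of 0.167 mg tamoxifen per day and dissection 1 week later; the genotype of the controls is given only as Control, and whether they carried the Cre or the floxed allele is not given in the labels. The mice were labelled 8 to 10 weeks old, while the extraction text gives 6 to 8 weeks.

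Libraries held 5703775 to 7095141 counts, of which the 47 genes took 2740 to 5928. Mutant M3 stood apart: the ribosomal RNA gene Rn45s took 38.9% of its counts, against 0.268% to 1.49% in the other 9 libraries, and left it 3484550 other counts. Tbx5 itself had 205 ± 17.8 CPM in control (SD, n = 4) and 394 ± 83.3 CPM in mutant mice (SD, n = 6), a log2 fold change of 0.94 ± 0.15 (SE). A count over the whole gene does not separate the excised exon from the rest of the transcript, so it does not check the excision, and directions below are relative to the labels. Both control libraries labelled M held 1299 and 1450 CPM of Xist, while those labelled F held 0.784 and 1.89, the reverse of their labels. In all 6 mutant libraries Xist and the Y-linked genes went with the label, and the sexes were compared in mutant mice only. CPM is the count per 1000000 reads of a library's TMM-scaled total, and mice are named by group, labelled sex and number. The median log2 fold change of all 13084 genes that passed the filter on low counts was -0.005.

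Replication begins when the origin recognition complex, with CDC6 and CDT1, loads the MCM ring on DNA before S phase. The ring becomes an active helicase only with CDC45, the GINS proteins and MCM10, after which primase, DNA polymerases, the PCNA clamp and its RFC loader copy the strands. Many of these genes are transcribed late in G1 phase under E2F factors, and most adult cardiomyocytes have left the cell cycle. In bulk tissue, more cells of a cycling type and more RNA per cell cannot be told apart.

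Promoters of 40 of the 47 genes were found in the RefSeq table of mouse promoters (assembly GRCm38.p6), 48 promoters in all, each spanning 250 bases before to 50 after the annotated start. The words TTTCCCGC, TTTCGCGC, TTTGCCGC and TTTGGCGC, the core of E2F sites, were searched on both strands, where the reverse complements read GCGGGAAA, GCGCGAAA, GCGGCAAA and GCGCCAAA. At least 1 of them stood in 15 of 48 promoters of the replication genes, 31.2% (Wilson 95% interval 19.9 to 45.3), and in 744 of 32851 promoters of the whole table, 2.26%. Counted by gene, 15 of 40 replication genes held a word, 37.5%, against 430 of the 9286 tested genes with a listed promoter, 4.63%. The 15 genes were Mcm3, Mcm5, Mcm6, Mcm7, Gins3, Cdc6, Cdt1, Orc1, Orc3, Pola1, Pold1, Pold3, Pole2, Rfc3 and Lig1. A CCAAT box on either strand stood in 54.2% of the promoters of replication genes and 37.4% of all promoters. The word TTTGAA, the cell cycle gene homology region of G2 phase genes, stood on either strand in 10.4% and 17.9%. The Wilson 95% interval of the first share, 4.53 to 22.2, holds the second. Counted by gene the shares were 12.5% and, of tested genes, 14%.

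The 250 bases before the start are shown for 4 genes that hold an E2F-type word and differ in their response (Mcm5, Mcm6, Cdc6, Orc3) and 2 called genes that hold none (Mcm10, Pcna). Positions are those of a word's first base, counted from the annotated start at 0. Capitals mark the words, and where a forward and a reverse word overlap they run together. The Mcm5 promoter is chr8:75109259-75109508 on the plus strand, with words starting at positions -153 and -149 from the start. For Mcm6 the stretch is chr1:128359706-128359955 on the minus strand, with words at positions -110, -106 and -47. The Cdc6 stretch is chr11:98907901-98908150 on the plus strand, with the word at position -138, and that of Orc3 is chr4:34614943-34615192 on the minus strand, with the word at position -41. Mcm10 was read from chr2:5012792-5013041 on the minus strand and Pcna from chr2:132253181-132253430 on the minus strand.
Mcm5: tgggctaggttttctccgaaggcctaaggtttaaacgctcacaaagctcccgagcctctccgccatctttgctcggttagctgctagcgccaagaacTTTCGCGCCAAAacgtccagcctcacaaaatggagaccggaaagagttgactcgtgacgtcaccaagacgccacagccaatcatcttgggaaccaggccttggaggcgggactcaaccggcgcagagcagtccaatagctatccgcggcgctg
Mcm6: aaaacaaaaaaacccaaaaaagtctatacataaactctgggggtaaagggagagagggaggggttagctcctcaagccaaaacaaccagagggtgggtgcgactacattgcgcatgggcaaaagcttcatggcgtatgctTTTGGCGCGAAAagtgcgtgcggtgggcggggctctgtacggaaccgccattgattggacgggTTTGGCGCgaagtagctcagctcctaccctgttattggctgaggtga
Cdc6: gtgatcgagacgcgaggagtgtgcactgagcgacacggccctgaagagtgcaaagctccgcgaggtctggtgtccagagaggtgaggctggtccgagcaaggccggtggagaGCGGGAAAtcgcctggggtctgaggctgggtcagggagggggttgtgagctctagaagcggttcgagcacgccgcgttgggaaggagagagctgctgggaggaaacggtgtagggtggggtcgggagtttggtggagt
Orc3: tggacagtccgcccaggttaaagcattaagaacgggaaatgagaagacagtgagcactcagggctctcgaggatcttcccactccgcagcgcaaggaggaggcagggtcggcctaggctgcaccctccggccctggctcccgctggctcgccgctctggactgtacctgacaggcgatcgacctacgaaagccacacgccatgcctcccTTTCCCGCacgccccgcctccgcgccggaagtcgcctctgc
Mcm10: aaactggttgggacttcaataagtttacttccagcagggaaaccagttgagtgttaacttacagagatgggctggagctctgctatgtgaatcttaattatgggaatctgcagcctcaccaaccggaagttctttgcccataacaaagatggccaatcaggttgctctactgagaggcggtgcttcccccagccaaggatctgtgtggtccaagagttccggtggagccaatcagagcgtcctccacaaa
Pcna: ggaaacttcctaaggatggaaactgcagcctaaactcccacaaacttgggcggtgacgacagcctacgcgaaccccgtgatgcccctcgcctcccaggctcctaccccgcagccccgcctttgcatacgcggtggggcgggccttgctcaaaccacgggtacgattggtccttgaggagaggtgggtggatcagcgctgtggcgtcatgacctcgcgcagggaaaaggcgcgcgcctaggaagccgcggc

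Genes with and without a word were set side by side in the mutant and control comparison, as a description and with no test of the difference. Of the 15 genes with a word 6 were called higher, with log2 fold changes from -0.28 to 1.97 and a median of 0.58. Of the 25 without a word 10 were called higher, with log2 fold changes from -0.51 to 3.38, among them Mcm10 and Chaf1b, and a median of 0.55. For the 7 genes with no listed promoter (Mcm4, Gins1, Gins2, Gins4, Pole, Prim2 and Rfc2) the median was 0.51 and 2 were called. A match of these letters is a description of the sequence and not a measurement of binding.

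All 47 replication genes passed the filter on low counts, and 18 of them were called higher in Tbx5 mutant right atrium and 0 lower. A gene was called when the edgeR adjusted p was under 0.05, the fold change was over 1.5 and its mean normalised count in control was over 1. Of all tested genes 15.7% were called, 8.5% higher and 7.16% lower, beside 38.3% of the replication genes called higher. Since the genes were picked for this contrast, nothing is read from the distance between these shares. Counts called in each role below stand beside the same 8.5%, and with 2 to 9 genes a role nothing is read from them either. Every mutant mouse lay above every control mouse for 20 of the 47 genes (42.6%, and 11.7% of all tested genes), and every mutant lay below every control for 1 of them, Orc4 (11% of all tested genes). The median log2 fold change of the 47 genes was 0.55, with 41 values above 0 and 6 below: Orc3, Orc4, Orc5, Rfc1, Rfc5 and Dut.

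Summed over the 47 genes, control libraries held 666 to 701 CPM and mutant libraries 734 to 863, means of 679 ± 15.5 (SD, n = 4) and 795 ± 57.8 (SD, n = 6), a ratio of 1.17. The groups did not overlap. Without the 6 genes of highest mean (Rpa1, Orc3, Rfc1, Orc4, Rrm1 and Mcm6, of which only Mcm6 was called) the sums were 323 to 372 CPM and 431 to 554 CPM, a ratio of 1.38.

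**Figure D1:**
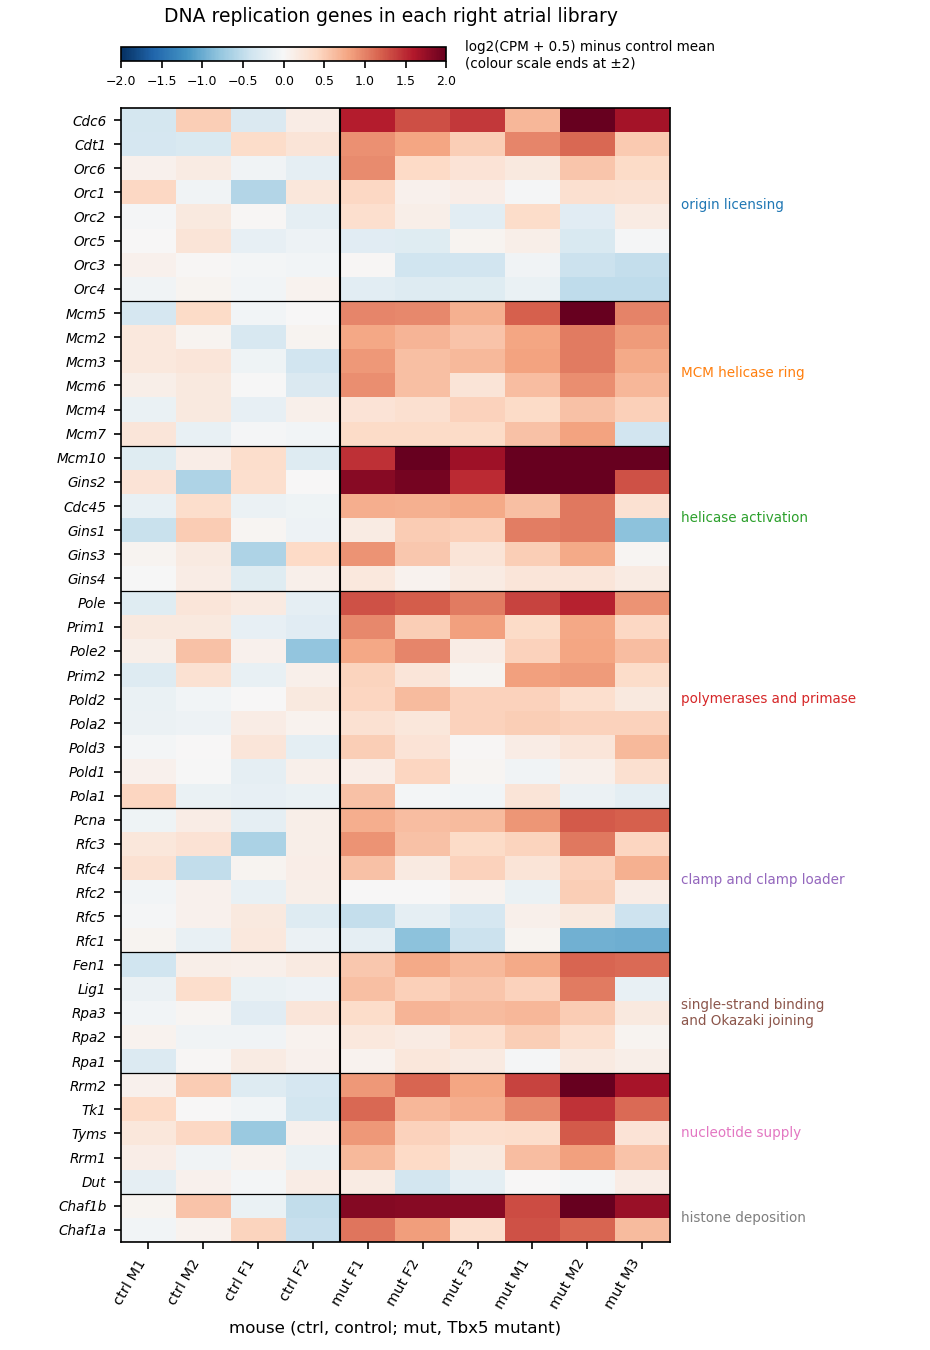
Rows are the 47 replication genes grouped by role and columns the 10 mice; colour is log2(CPM + 0.5) minus the mean of the 4 control mice, red for higher and blue for lower, with the scale ending at 2 either way. The deepest red rows in mutant mice are Mcm10, Gins2, Chaf1b and Cdc6, while Orc3, Orc4 and Rfc1 are mostly blue in mutant mice.

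Genes of origin licensing split into the loading factors and the recognition complex. CDC6 and CDT1 bring the MCM ring to the complex, and both of their genes were called higher, whereas 0 of the 6 Orc genes were called. Cdc6 had 0.429, 1.16, 0.47 and 0.812 CPM in control M1, M2, F1 and F2, and from 1.37 to 4.37 CPM, median 2.82, in mutant mice. These are few reads, 19 in all control libraries and 106 in all mutant libraries, a ratio of 4 per scaled read total (exact 95% interval 2.44 to 6.91, counting error only). All mutant mice lay above the controls for Cdc6, and mutant M1 was the lowest of them. Cdt1 had 1.43, 1.49, 2.67 and 2.44 CPM in control and 2.93 to 4.95 CPM, median 3.92, in mutant mice, a log2 fold change of 0.93 ± 0.25 (SE), with no overlap.

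The recognition complex subunits were the more abundant part of this step and held 3 of the 6 values below 0. Orc3, whose level per kb of transcript was the highest of the 47 genes, had 88.7, 85.2, 81.7 and 80.4 CPM in control and 59.9 to 85.3 CPM, median 63.7, in mutant mice. Its log2 fold change was -0.28 ± 0.11 (SE), it was not called, and mutant F1 at 85.3 CPM lay inside the control range. Orc4 had 48.7, 53.3, 49.4 and 53.5 CPM in control against 35.7 to 46.6 CPM, median 43, in mutant mice. For Orc4 every mutant lay below every control and the adjusted p passed its threshold, but the log2 fold change of -0.30 ± 0.10 (SE) was within the 1.5-fold limit. Orc6 differed in the other direction without a call, at 0.50 ± 0.16, with every mutant above every control. Orc1, Orc2 and Orc5 had log2 fold changes of 0.18, 0.10 and -0.11 with overlapping groups. Together the 8 licensing genes summed to 182 to 201 CPM in control and 157 to 200 CPM in mutant mice, so the groups overlapped.

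The MCM ring, the hexamer that becomes the replicative helicase, was higher as a group. Its 6 genes summed to 70.2 to 84.5 CPM in control and 106 to 160 CPM in mutant mice, and 4 of them (Mcm2, Mcm3, Mcm5 and Mcm6) were called. Mcm5 had 5.57, 9.43, 6.9 and 7.17 CPM in control and 12 to 32.8 CPM, median 14.6, in mutant mice, a log2 fold change of 1.29 ± 0.27 (SE). No mutant overlapped a control, and mutant M2 at 32.8 CPM stood apart from the next mutant at 17.1. Mcm3 had 11.7, 11.9, 9.41 and 7.58 CPM in control and 15.5 to 21.1 CPM, median 17.5, in mutant mice, a log2 fold change of 0.80 ± 0.15 (SE). Mcm2 differed by the same amount, 0.80 ± 0.13, between 8.15 to 12 CPM and 15.6 to 21.8 CPM. Mcm6 lay close above the fold limit, with 20, 21, 18.2 and 14.9 CPM in control and 22 to 35.5 CPM, median 29, in mutant mice, a log2 fold change of 0.69 ± 0.14 (SE) with no overlap.

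Mcm4 had the highest level per kb of the ring genes in control mice and was not called. It had 16.4, 20.8, 16 and 19.4 CPM in control and 21.9 to 27.4 CPM, median 24.4, in mutant mice, so every mutant lay above every control while the log2 fold change was 0.42 ± 0.11 (SE). Mcm7 had the same log2 fold change, 0.42 ± 0.18, with overlap, since mutant M3 at 8.99 CPM was below all controls. Of 50-base windows in the Mcm7 transcript 34.2% also occur in transcripts of other genes, among them Gm5487 and Ap4m1, so its count is uncertain. Per kb of the longest transcript the ring genes ran from 2.15 (Mcm5) to 5.06 (Mcm4) CPM per kb in control and from 5.16 (Mcm3) to 6.85 (Mcm6) in mutant mice. This span depends on the length used, since with the median transcript length the control levels ran from 2.79 (Mcm5) to 27.6 (Mcm4) CPM per kb.

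Helicase activation held the largest fold changes of the 47 genes and the lowest control counts. MCM10, which helps to separate and start the loaded rings, had a gene that was almost undetected in control: Mcm10 had 0.143, 0.331, 0.47 and 0.135 CPM, or 1, 2, 3 and 1 reads. In mutant mice it had 1.58 to 5.1 CPM, median 2.63. The pooled reads, 7 against 109, gave a ratio of 11.2 (exact 95% interval 5.24 to 28.4, counting error only). Its fitted log2 fold change depended on the prior count, 3.38 at the default prior of edgeR and 1.83 at a prior of 5. Gins2, which encodes a GINS subunit of the helicase, had 0.429, 0, 0.47 and 0.271 CPM in control, or 3, 0, 3 and 2 reads, and 1.36 to 4.63 CPM, median 2.3, in mutant mice. Pooled reads of Gins2, 8 against 102, gave a ratio of 9.14 (exact 95% interval 4.47 to 21.7). Of its transcript's 50-base windows 70.3% are shared with Gse1, so reads of Gins2 are uncertain.

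CDC45 completes the helicase, and Cdc45 was called with overlapping groups, 2.43 to 3.64 CPM in control and 3.54 to 6.26 CPM in mutant mice, at a log2 fold change of 0.81 ± 0.21 (SE). The remaining GINS genes were not called, with log2 fold changes of 0.68 ± 0.38 for Gins1, 0.54 ± 0.25 for Gins3 and 0.18 ± 0.10 for Gins4. Gins4 was the most abundant of them per kb, with 17.3, 19.4, 14.7 and 18.7 CPM in control and 18.4 to 20.7 CPM, median 19.9, in mutant mice, and its groups overlapped. The GINS proteins work as 1 complex, and in control mice their genes ran from 0.075 CPM per kb for Gins2 to 13 for Gins4. The low end rests on 8 control reads of Gins2, with 70.3% of its 50-base windows shared with Gse1, so this span is uncertain. In mutant mice the same span was 0.686 to 14.7, and with the median transcript length the control span was 0.14 to 13.

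**Figure D2:**
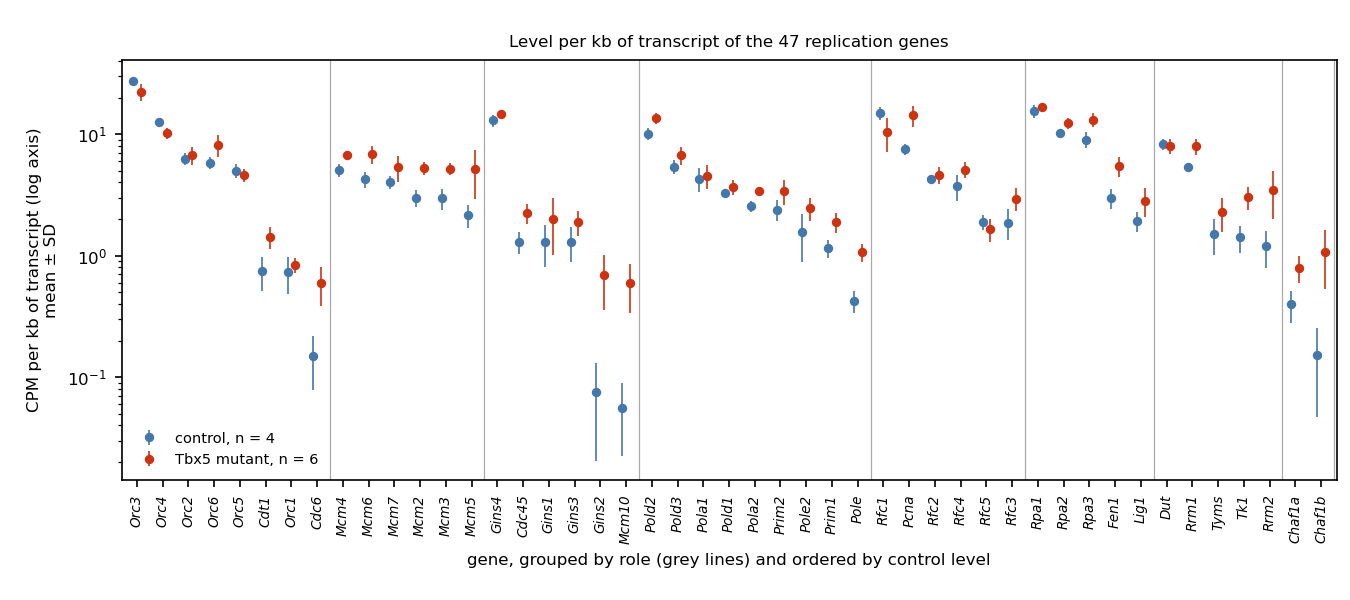
Mean ± SD of CPM per kb of the longest annotated transcript, on a log axis, for each gene in control (blue, n = 4) and Tbx5 mutant mice (red, n = 6), grouped by role and ordered by control level. In most roles the genes at the right end, with the lowest control level, show the widest distance between the groups, as for Mcm10 (0.0554 and 0.599) against Gins4 (13 and 14.7).

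Polymerases and primase were called for 2 of 9 genes, beside 8.5% of all tested genes called higher. Pole, the catalytic subunit of the leading strand polymerase epsilon, had 2.43, 3.64, 3.45 and 2.57 CPM in control and 5.99 to 9.61 CPM, median 7.74, in mutant mice. The lowest mutant lay well above the highest control, and the log2 fold change was 1.36 ± 0.19 (SE). Its partner Pole2 was not called, at 0.68 ± 0.29 with overlap. Prim1, the catalytic primase that makes the RNA primers, had 4.14, 4.14, 3.14 and 2.98 CPM in control and 4.8 to 7.41 CPM, median 5.8, in mutant mice, a log2 fold change of 0.72 ± 0.20 (SE) with no overlap.

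The genes of lagging strand polymerase delta were not called, nor were Pola1, Pola2 and Prim2, which form a complex with Prim1. Pold2, an accessory subunit of delta and the most abundant gene of this role per kb, had 15, 15.9, 16.6 and 19.1 CPM in control and 19.1 to 26.1 CPM, median 22.7, in mutant mice, a log2 fold change of 0.44 ± 0.11 (SE). Mutant M3 lay level with control F2 there, at 19.1 CPM. The catalytic subunit gene Pold1 had a log2 fold change of 0.17 ± 0.13 and Pold3 one of 0.31 ± 0.14, both with overlap. Within the polymerase alpha and primase complex, Pola2 differed by 0.42 ± 0.13 with every mutant above every control, while catalytic Pola1 stood at 0.08 ± 0.17 and primase subunit Prim2 at 0.51 ± 0.20, both with overlap. Catalytic subunits of the 3 polymerases thus had log2 fold changes of 1.36 (Pole), 0.17 (Pold1) and 0.08 (Pola1).

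The clamp and its loader did not move as a unit. PCNA is the ring that holds polymerases on DNA, and Pcna had 10.7, 12.6, 10 and 12.3 CPM in control and 17.7 to 27.1 CPM, median 20.3, in mutant mice. That was a log2 fold change of 0.91 ± 0.15 (SE) with no overlap, and mutants M2 and M3 were the highest at 27.1 and 26.7 CPM. Since 31.8% of its 50-base windows are shared with the pseudogene Pcna-ps2, the count of Pcna is uncertain. Of the 5 RFC loader genes only Rfc3 was called, just inside the fold limit: 5.86, 6.12, 2.98 and 5.41 CPM in control and 6.55 to 10.8 CPM, median 7.23, in mutant mice, a log2 fold change of 0.66 ± 0.22 (SE). The groups did not overlap, although control M2 at 6.12 CPM and mutant F3 at 6.55 CPM lay close together.

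Rfc1, the large subunit of the loader, had the lowest log2 fold change of the 47 genes, -0.51 ± 0.19 (SE), and was not called. It had 72.9, 62.7, 81.4 and 64.2 CPM in control and 35.1 to 72.5 CPM, median 45.6, in mutant mice. The mutants fell into low values in F2, M2 and M3, from 35.1 to 39.3 CPM, and values of 52 to 72.5 CPM in F1, F3 and M1, of which only M1 lay inside the control range. Rfc2, Rfc4 and Rfc5 had log2 fold changes of 0.11, 0.44 and -0.17 with overlap, and with the median in place of the longest transcript Rfc2 would have the highest level per kb of this role. Its values were 20.6, 22.7, 19.3 and 23.1 CPM in control and 19.4 to 30.4 CPM, median 22, in mutant mice.

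Single-strand binding and Okazaki joining had 1 called gene of 5, beside 8.5% of all tested genes called higher. FEN1 trims the flaps between Okazaki fragments, and Fen1 had 5.14, 7.61, 7.53 and 7.99 CPM in control and 10.4 to 16.2 CPM, median 12.1, in mutant mice, a log2 fold change of 0.87 ± 0.17 (SE) with no overlap. In its transcript 81.2% of 50-base windows also occur in Gm10143 or Tmem258 transcripts, so these reads are uncertain. Lig1, the ligase that seals the fragments, lay just outside the fold limit at a log2 fold change of 0.58 ± 0.20 (SE). Lig1 had 5.57, 7.94, 5.49 and 5.68 CPM in control and 5.45 to 13.1 CPM, median 8.93, in mutant mice, and mutant M3 was below all controls. The subunits of the single-strand binding protein RPA were not called, with log2 fold changes of 0.12 ± 0.09 for Rpa1, 0.27 ± 0.10 for Rpa2 and 0.55 ± 0.15 for Rpa3. Rpa1, which takes part in repair as well as replication, was the most abundant of this role, with 64.3, 78.8, 86.9 and 83 CPM in control and 76.6 to 90.6 CPM, median 86.1, in mutant mice.

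Nucleotide supply was called for 2 of 5 genes, Rrm2 and Tk1, beside 8.5% of all tested genes called higher. Both encode enzymes known to be made mainly in S phase. RRM2 is the small subunit of ribonucleotide reductase, and Rrm2 had 2.71, 3.81, 2.04 and 1.89 CPM in control and 4.74 to 13.4 CPM, median 6.73, in mutant mice, a log2 fold change of 1.54 ± 0.33 (SE). Its partner gene Rrm1 lay just outside the fold limit at 0.56 ± 0.12 (SE). Rrm1 had 32.1, 28.1, 30.9 and 26.7 CPM in control and 33.7 to 52.4 CPM, median 44.5, in mutant mice, with no overlap. Tk1, the cytosolic thymidine kinase, had 4.72, 3.47, 3.29 and 2.57 CPM in control and 5.73 to 10.2 CPM, median 7.68, in mutant mice, a log2 fold change of 1.10 ± 0.22 (SE) with no overlap. Tyms, which makes thymidylate, had a log2 fold change of 0.62 ± 0.25 and was not called, with overlap. Dut, which clears dUTP, had 14, 17, 15.5 and 17.7 CPM in control and 12.3 to 18 CPM, median 15.8, in mutant mice, at -0.05 ± 0.13.

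Histone deposition was represented by both large subunit genes of chromatin assembly factor CAF-1, and both were called. Chaf1b had 0.429, 0.827, 0.314 and 0.135 CPM in control and 1.71 to 6.12 CPM, median 2.66, in mutant mice, with no overlap. In reads this was 11 against 117, a ratio of 7.63 (exact 95% interval 4.11 to 15.7, counting error only). Chaf1a had 2.86, 3.14, 4.23 and 2.03 CPM in control and 3.9 to 7.89 CPM, median 6.26, in mutant mice, a log2 fold change of 1.00 ± 0.25 (SE), with mutant F3 at 3.9 CPM below control F1 at 4.23. About 48% of its 50-base windows occur in other transcripts, Ubxn6 among them, so reads of Chaf1a are uncertain. Chaf1b, Cdc6, Mcm10 and Gins2 had no control library over the expression filter and were tested only because mutant libraries passed it.

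**Figure D3:**
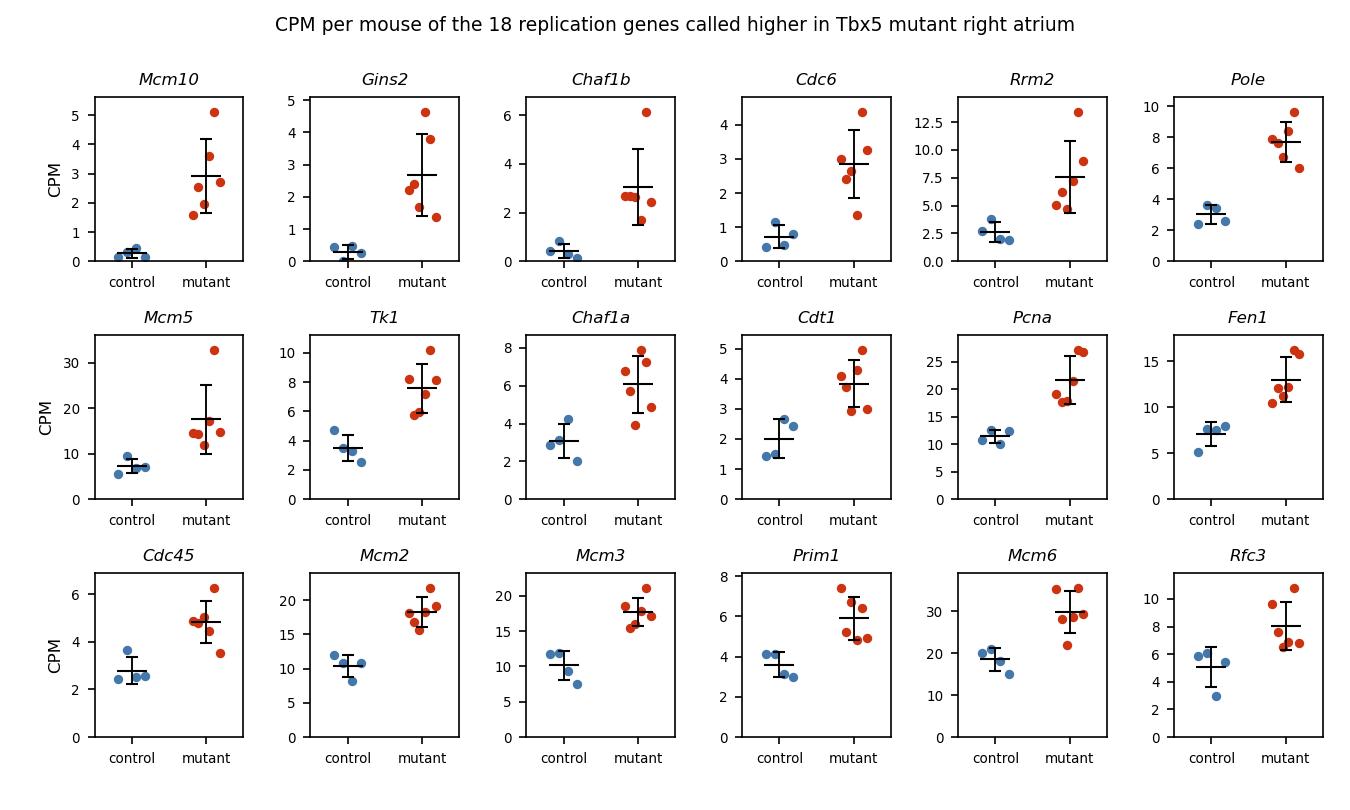
CPM in each mouse for the 18 replication genes called higher, in order of log2 fold change, with control mice in blue (n = 4), Tbx5 mutant mice in red (n = 6), and bars for the mean ± SD; within each group the mice run from left to right as M1, M2, F1, F2 and as F1, F2, F3, M1, M2, M3. The groups overlap only for Chaf1a and Cdc45, and mutant M2 is the highest mouse for 15 of the 18 genes.

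The largest fold changes of the 47 genes belonged to scarce transcripts. The 6 genes of highest mean CPM had log2 fold changes from -0.51 (Rfc1) to 0.69 (Mcm6). Mcm10, Gins2, Chaf1b and Cdc6, the called genes with fewest reads, had the 4 largest. Those 4 had no control library over the expression filter, so mutant libraries alone brought them into the test. Gins1 and Orc1, also scarce, were not called, at 0.68 and 0.18. At a prior of 5 the value of Rrm2, 1.31, exceeded that of Cdc6, 1.28. Control values enter both axes, and the fitted values of the scarce genes depend on the prior count, so this is a description of the 47 genes. The threshold itself ran between neighbours: Rfc3 (0.66) and Mcm6 (0.69) were the lowest inside it, Lig1 (0.58) and Rrm1 (0.56) the highest outside it among genes with an adjusted p under 0.05. In all, 26 replication genes had an adjusted p under 0.05, and 8 of these were not called because of the fold limit, 7 with higher values and Orc4 with lower.

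**Figure D4:**
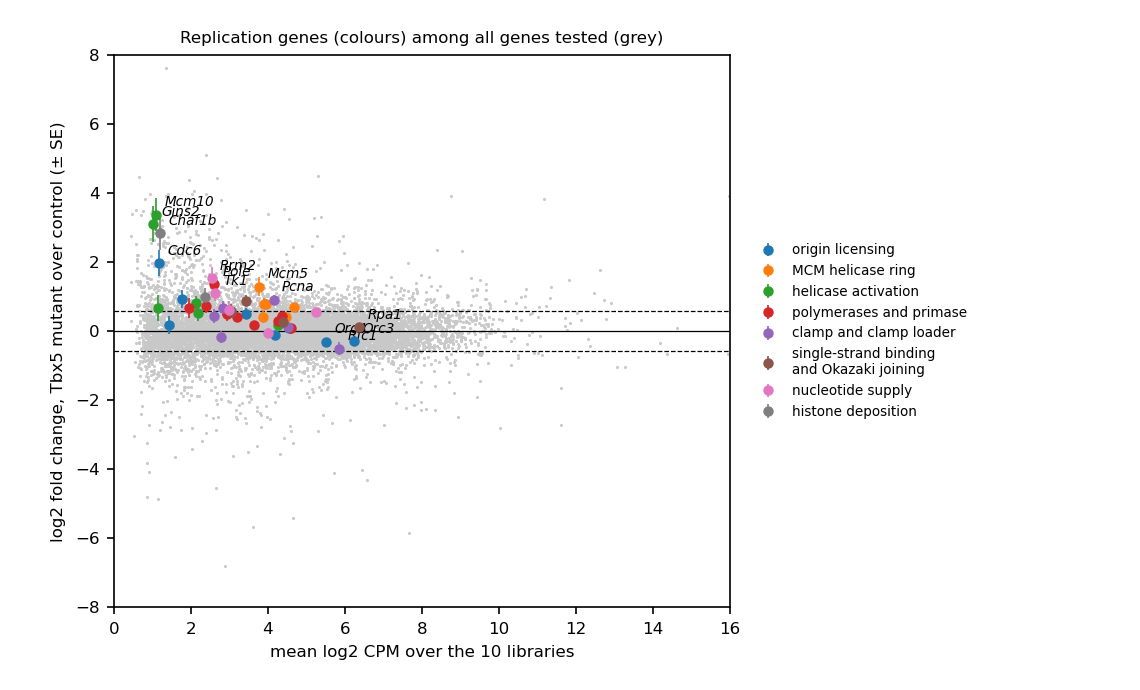
Log2 fold change of Tbx5 mutant over control against mean log2 CPM for the 13084 genes tested (grey) and the 47 replication genes (coloured by role, bars ± SE); dashed lines mark a fold change of 1.5. The replication genes lie mostly between 0 and the upper line or above it, with Mcm10, Gins2, Chaf1b and Cdc6 at the top left and Rfc1, Orc3 and Orc4 below 0 at the right.

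Mice of the same group did not contribute equally. Mutant M2 was the highest mutant for 24 of 47 genes, 51.1%, while it was highest for 18.8% of all tested genes, and its median log2 deviation from the group mean over the 47 genes was 0.26. Mutant F3 was highest for 0 of the 47 and had a median deviation of -0.13, against 14.4% of all genes for which it was highest. Mutant M3, the library with most ribosomal RNA, was the lowest mutant for 15 genes, and for 18.9% of all tested genes. Among controls, M2 was highest for 20 of 47, 42.6%, against 26.5% of all genes. Without mutant M2, 17 of the 47 genes were called higher with a median log2 fold change of 0.49, and without mutant M3, 20 with a median of 0.60. Of 10 markers of cycling cells, 7 were also highest in mutant M2, and Mki67, Top2a and Bub1 were highest in mutant M1, Mki67 at 118 CPM with 54.9 CPM in M2.

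The sexes were compared within the mutant mice, 3 labelled F and 3 labelled M, which the choice of genes did not use. By edgeR's quasi-likelihood test 0 of the 47 genes had an adjusted p under 0.05, while 8 of 12881 genes did, 0.0621%, and the smallest adjusted p of a replication gene was 0.536, for Rrm2. At an unadjusted p under 0.05 there were 6 replication genes, and 6.76% of all genes, and DESeq2 gave 0 adjusted and 3 unadjusted. The 6 were Rrm2, Pcna, Mcm10, Mcm5, Prim2 and Fen1, all with lower values in mice labelled F, from -0.94 ± 0.33 (SE, Mcm10) to -0.38 ± 0.17 (Fen1) on the log2 scale. Over the 47 genes 33 had lower values in F, with a median log2 difference of -0.14, and all genes had a median of 0.00. With 3 mice a sex, and mutant M2 among those labelled M, no difference between the sexes passed the test at this number of mice.

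Other genes of the pathway, listed by function, were read in the same contrast, as a description. Of all tested genes 8.5% were called higher and 7.16% lower. Of 28 tested genes among 30 other fork and origin genes, 5 were called higher and 0 lower, with a median log2 fold change of 0.22. Clspn, the checkpoint adaptor at the fork, had 0.863 ± 0.701 CPM in control and 3.11 ± 1.61 CPM in mutant mice (SD, n = 4 and 6), a log2 fold change of 1.91 ± 0.52 (SE). Dbf4, the activating subunit of the kinase that fires origins, had 1.39 ± 0.545 and 5.01 ± 1.76 CPM, a log2 fold change of 1.85 ± 0.33. The other called genes were Asf1b, Wdhd1 and Gmnn, the last of which encodes geminin, the inhibitor of CDT1. Ticrr was not matched in the table, and Dscc1 did not pass the filter.

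Of 14 other nucleotide supply genes 6 were called higher and 0 lower, beside 8.5% and 7.16% of all tested genes, with a median of 0.48. Ctps, which makes CTP, had 33.3 ± 0.911 CPM in control and 70.5 ± 8.89 CPM in mutant mice, a log2 fold change of 1.08 ± 0.10 (SE). Nme1, a nucleoside diphosphate kinase, had 20 ± 1.67 and 40.3 ± 8.09 CPM, a log2 fold change of 1.01 ± 0.15. Dck, Dctd, Shmt1 and Nme2 were the remaining called genes.

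Among 17 tested E2F, RB and DREAM genes 4 were called higher and 0 lower, beside 8.5% and 7.16% of all tested genes. Their median was 0.22. E2f2, a transcriptional activator, had 0.833 ± 0.294 CPM in control and 3.33 ± 1.12 CPM in mutant mice, a log2 fold change of 2.00 ± 0.34 (SE). E2f7, an atypical E2F that represses, had 0.665 ± 0.282 and 2.56 ± 1.03 CPM, at 1.88 ± 0.41, both from few control reads (22 and 18 in all), and E2f1 and E2f8 were also called. Rb1, which holds E2F factors in check, was not called, at a log2 fold change of -0.53 ± 0.09. Every mutant, at 37.3 to 46.3 CPM, lay below every control, at 58.2 to 63.9 CPM. Rb1 was chosen after its values were seen. Its relatives Rbl1, at 0.55 ± 0.16, and Rbl2, at -0.35 ± 0.10, were not called either, both with overlap.

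The replication genes were picked because cell cycle genes were higher in this contrast, so calls of such genes repeat that choice and support nothing. Markers of cycling cells, most of them mitotic genes, were all called higher, 10 of 10, beside 8.5% of all tested genes. Their log2 fold changes ran from 2.01 to 3.82, with a median of 3.18, and their sum was 16.4 to 33.6 CPM in control and 92.5 to 287 CPM in mutant mice. Mki67, the proliferation antigen, had 8.66 ± 2.89 CPM in control and 58.5 ± 35.7 CPM in mutant mice (SD), a log2 fold change of 2.77 ± 0.42 (SE). Top2a, the topoisomerase that untangles chromosomes, had 5.91 ± 2.97 and 57.3 ± 27 CPM, at 3.29 ± 0.40. Ccnb1, a mitotic cyclin, was almost undetected in control, with 0, 0.331, 0.314 and 0 CPM in M1, M2, F1 and F2, and its pooled reads, 4 against 87, gave a ratio of 15.6 (exact 95% interval 5.88 to 58.5, counting error only). Bub1, a checkpoint kinase, had 0.157 to 0.857 CPM in control, and 12 against 208 pooled reads gave a ratio of 12.4 (exact 95% interval 6.96 to 24.4). The fitted log2 fold changes of both, 3.82 and 3.57, depend on the prior count.

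Markers of several cell types were called between the groups too, beside 8.5% of all tested genes called higher and 7.16% lower. Cardiomyocyte markers were abundant in every library, 68200 to 81536 CPM summed in control and 57562 to 71139 in mutant mice. Of 7 tested 2 were called higher (Tnnt2, Actc1) and 3 lower (Myl7, Sln, Nppa). Myl4, at -0.44 with every mutant below every control, and Myh6, at 0.10 with overlap, were not called. Leukocyte markers summed to 335 to 543 CPM in control and 558 to 814 in mutant mice, 5 of 6 tested called higher (Cd68, Itgam, Emr1, Ptprc, Csf1r) and 0 lower. Cd3e and Cd79a, which define T and B cells, were at most 0.686 and 0.857 CPM in any library and were not tested, nor was S100a8. Fibroblast markers summed to 2650 to 3303 and 3241 to 4467 CPM, with Col1a1 and Col1a2 called higher of 6. The others were not called, with log2 fold changes of 0.57 (Tcf21), 0.45 (Lum), -0.01 (Dcn) and -0.40 (Pdgfra). Smooth muscle and pericyte markers summed to 227 to 281 and 297 to 638 CPM, with Acta2 called higher of 4. Acta2 alone had means of 72.4 and 287 CPM, while Pdgfrb (0.41), Myh11 (0.23) and Rgs5 (-0.22) were not called. Both tested erythroid markers, Beta-s and Alas2, were called higher, 85 to 192 and 112 to 591 CPM, in libraries treated to remove globin RNA. Endothelial and epicardial markers had 0 calls of 6 and 0 of 3, at 1451 to 1927 and 1443 to 1858 CPM, and 261 to 271 and 146 to 317 CPM. None of 3 adipocyte markers passed the filter, with sums of 0.47 to 4.14 and 0 to 20.4 CPM. The part of these cell types in the values of the replication genes was not tested.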

How the data were processed

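The authors deposited 1 table with the read count of each gene in each library as whole numbers without normalization, and a signal in which each count was divided by 1 size factor per library. The submitters' processing notes name FastQC, TopHat2 2.0.11, featureCounts, DESeq2 and the build mm10, and the labels name both an mRNA kit and ribosomal RNA removal. The authors' own comparison is also deposited, as a log2 fold change with its error, a Wald score, p-values and a linear fold ratio, and was not used.

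Counts were fitted with edgeR 4.0.16 in R 4.3.3 over all 10 libraries, without covariates, with TMM scaling, its expression filter, the default prior count and the quasi-likelihood test, and p-values were adjusted by Benjamini-Hochberg over 13084 genes. A gene was called at an adjusted p under 0.05, a fold change over 1.5 and a control mean of the authors' signal over 1. Standard errors were taken as the size of the log2 fold change divided by the root of its F statistic. Levels between genes are CPM per kb of the longest GENCODE M21 transcript. The fit was tested on simulated counts. The 47 genes and all lists were chosen with earlier results of these data known. Some genes were named with values in each control mouse and the range and median of the mutant mice. These were the 2 genes of each role with the largest change and the highest per kb. Those with at most 3 counts in every library of a group, and the 2 on each side of the fold limit, were added. The 2 called genes of largest change in each other list, and Mki67, Top2a and Tbx5, were given mainly by group. The labels do not pair the mice or say whether any shared a litter, and the p-values treat the mice as independent. The exact intervals pool the reads of a group, so they cover counting error only and leave out the spread between mice. Reads carry no molecular identifiers, so copies of 1 molecule cannot be told apart and these intervals may be too narrow.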

Additional observations from a re-analysis of the deposited data

Results flagged for a closer look

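Of 94 sets of values (47 genes in 2 groups) 6 held a mouse far from the rest of its group by Dixon's gap test, where 4.7 are expected at 1 in 20. In mutant M2, Mcm5 stood at 32.8 CPM with the next mutant at 17.1, and Chaf1b at 6.12 CPM with the next at 2.68. In control M2, Cdc45 stood at 3.64 CPM with the next control at 2.57, and Lig1 at 7.94 CPM with the next at 5.68. Control M1 was high for Pola1, at 30.6 CPM with the next at 20.6, and low for Fen1, at 5.14 CPM with the next at 7.53. Without mutant M2 the log2 fold change of Mcm5 was 1.01 and it stayed called; no cause was tested.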

How the results depend on the processing

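The replication genes were refitted under 21 alternatives. The 18 genes called higher became 7 when genes needed a mean count of at least 50, which left 27 of the 47 in the test, and 8 at a fold change over 2; with each mouse left out in turn they were 17 to 20, and under the other alternatives 14 to 25. The 0 called lower became 1 without a fold threshold (Orc4) and ranged from 0 to 1 with a mouse left out, the 1 being Rfc1 without mutant M1. The median log2 fold change ranged from 0.47 to 0.61 with a mouse left out. At the main thresholds, 10 of the 18 called genes were called in all of the 21 refits that tested them. The stricter fold limit of 2, which left 8 genes, is not among these refits. Rfc3 was lost in 7 refits, Cdc45, Cdc6, Prim1 and Chaf1b with mice labelled M only, and Cdt1, Fen1 and Chaf1a with mice labelled F only. In those fits, and in the fit with labelled sex, Xist runs against the control labels, so mutants of 1 label met controls whose sex-linked genes were of the other sex. Lig1, just outside the fold limit, was called in 10 and Rrm1 in 7. No called gene changed sign. The share of promoters with an E2F-type word was 18.8% in the 250 bases before the start alone, against 31.2%. For sex in mutant mice the count was 0 in each alternative run. With replicate numbers as a replicate block, 22 genes were called higher with a median of 0.63. The labels do not say that the numbers pair the mice. The 4 same-numbered pairs correlated at a mean of -0.00712, and so few pairs cannot decide whether mice were paired. Of the levels per kb, 40 of 47 moved by more than 1 SD with the median transcript length. Few reads limit Mcm10, Gins2, Cdc6 and Chaf1b, and mutant M3 holds 2740 reads of the 47 genes.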
